A study of Homo sapiens with 12 samples.

Results

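The p53 target genes described here were 29 genes taken by symbol from the 57905 genes of the deposited annotation. Of the 29, 27 had at least 1 UMI (a transcript molecule counted once) in each library, and 2, EDA2R and SPATA18, had 0 in both. They were followed in Nalm-6, a human leukemia line of precursor B cells, by single-cell RNA-seq of transcript 3' ends. There was 1 control library and 1 library whose label is induced RUNX1, and each has the time label 72 h. Cells of the library labelled RUNX1 carried the Tet-On regulator and a response vector with RUNX1 cDNA and were induced by doxycycline at 500 ng/ml. For the control, the genotype label gives the same vector without an insert, whereas DMSO, a solvent, stands in the title and no doxycycline is listed. The methods of the study also describe a Nalm-6 library kept in the solvent for a shorter time, so vector, inducer, solvent and culture time cannot be told apart from the RUNX1 label. Dead cells had been depleted before capture.

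After filtering, 5598 of 6073 control barcodes and 4800 of 5491 barcodes of the library labelled RUNX1 remained, with 75754137 and 75350615 human UMIs. Levels are given as CPM, the UMIs of a gene per 1000000 UMIs of the same cells. Every interval is a 95% interval for counting error only, and with 1 library per group no test between the libraries was possible and no ratio has a replicate check. RUNX1 transcript itself was lower in the library labelled RUNX1, at 30.4 CPM from 2288 UMIs against 69.7 CPM from 5282 UMIs in the control. Whether the transcript of the construct ends where the assay reads is not given in the sources used here, and the direction of every ratio rests on the library labels. All 12 B precursor markers found in the annotation were detected in both libraries. Their summed level was 5232 CPM for the control and 5868 CPM for the library labelled RUNX1. The summed myeloid markers stood at 2.28 and 1.80 CPM, and the T and NK cell markers at 15.2 and 31.4 CPM, with CD3D, CD3G and CD7 at 0 in both libraries. CD3E and GNLY were at 0 in control cells only. Of the 8 T and NK cell markers, NKG7 alone reached 10 CPM in either library. It was higher in cells labelled RUNX1, by a log2 ratio of 1.52. Erythroid and platelet markers summed to 0.0132 and 0 CPM. Of the passing barcodes, 10 were shared by the libraries.

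p53 is a transcription factor that is stabilised by DNA damage and other stress and is held low by the ubiquitin ligase MDM2, itself a p53 target. It binds paired copies of a decamer at its target genes, whose products slow the cell cycle, repair DNA, sensitise cells to death signals, alter metabolism and, through MDM2 and PPM1D, restrain p53 again. Many of these genes also respond to other factors, such as the FOXO proteins in resting cells and ATF4 under nutrient stress. In normal B precursors the breaks made during antigen receptor rearrangement engage this pathway.

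The promoter letters of the members were read first, because the members share a regulator by definition and the study concerned a second DNA-binding factor. RefSeq windows of 250 bases upstream of the annotated start (GRCh38.p14) were at hand for 23 of the 29 members. The p53 decamer (10 letters, the unit that is repeated in a p53 response element, searched on both strands) was found in 3 of the 23, or 13.0%, against 5.53% of 27305 windows of all genes. The RUNX letters TGTGGT or their complement ACCACA were found in 2 of the 23, or 8.70%, against 10.9% of all windows. The 5 windows with a match are printed below, 5′ to 3′ on the strand of the gene, with the matched letters in capitals. In the windows of RPS27L, AEN and FDXR the capitals mark the p53 decamer, which began 59, 34 and 11 bases before the start. In those of PPM1D and TRIAP1 they mark the RUNX letters, which began 31 and 103 bases before the start, and no p53 or RUNX match overlapped another.
RPS27L, GRCh38.p14 chr15:63157478-63157727, minus strand: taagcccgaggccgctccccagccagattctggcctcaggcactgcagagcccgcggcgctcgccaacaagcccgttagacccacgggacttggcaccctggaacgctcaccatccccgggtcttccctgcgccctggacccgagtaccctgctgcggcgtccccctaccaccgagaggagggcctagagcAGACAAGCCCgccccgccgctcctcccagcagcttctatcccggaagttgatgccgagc
AEN, GRCh38.p14 chr15:88621090-88621339, plus strand: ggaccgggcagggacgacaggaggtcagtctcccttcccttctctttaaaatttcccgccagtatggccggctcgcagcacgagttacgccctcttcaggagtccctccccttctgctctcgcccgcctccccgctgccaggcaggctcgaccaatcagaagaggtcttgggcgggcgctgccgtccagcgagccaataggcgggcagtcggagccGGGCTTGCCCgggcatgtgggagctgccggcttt
FDXR, GRCh38.p14 chr17:74872995-74873244, minus strand: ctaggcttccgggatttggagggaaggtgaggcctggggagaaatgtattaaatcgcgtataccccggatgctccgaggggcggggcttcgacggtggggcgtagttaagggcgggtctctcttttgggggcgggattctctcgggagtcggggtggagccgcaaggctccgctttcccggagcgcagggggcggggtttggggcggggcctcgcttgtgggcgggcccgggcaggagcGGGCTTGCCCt
PPM1D, GRCh38.p14 chr17:60599943-60600192, plus strand: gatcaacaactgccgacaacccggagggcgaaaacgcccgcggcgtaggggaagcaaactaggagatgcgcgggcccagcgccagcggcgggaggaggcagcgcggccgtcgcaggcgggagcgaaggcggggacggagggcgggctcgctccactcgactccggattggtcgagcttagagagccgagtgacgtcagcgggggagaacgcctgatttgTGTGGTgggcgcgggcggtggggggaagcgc
TRIAP1, GRCh38.p14 chr12:120446385-120446634, minus strand: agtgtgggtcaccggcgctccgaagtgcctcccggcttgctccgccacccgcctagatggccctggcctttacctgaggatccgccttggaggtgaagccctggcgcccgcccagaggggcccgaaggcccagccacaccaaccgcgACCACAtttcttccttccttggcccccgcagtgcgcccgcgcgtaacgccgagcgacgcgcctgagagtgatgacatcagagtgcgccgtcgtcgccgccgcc
Each window held only 1 copy of the decamer, not a pair. The windows of CDKN1A, BTG2, MDM2 and ZMAT3 held neither set of letters. The letters TGACGT, the core of the cAMP response element that CREB and ATF proteins bind, were found with their complement in 3 of the 23 windows (XPC, C12orf5 and PPM1D, where matches on both strands overlap each other), against 7.42% of all windows. FOXO letters (TGTTTAC and complement, 2.98% of all windows) and the serum response element (1.14%) were in none of the 23. A match is a description of letters in a window, not of binding. Sequence outside these 250 bases was not searched, so a window without a match does not mean a gene without a site.

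The libraries differed in the share of cells that expressed cell cycle genes, so each member was read within a state as well as over all cells. A cycle score, log2 of 1 plus the UMIs of 96 S and G2/M phase genes per 10000 UMIs of a cell, separated cells into cycling and non-cycling at 5.29. No p53 member was among the 96 genes. Cycling cells were 93.8% of the control (5252 cells, 95% exact binomial interval 93.2 to 94.4) and 39.8% of the library labelled RUNX1 (1910 cells, 38.4 to 41.2). There were 346 non-cycling control cells and 2890 labelled RUNX1. The 346 control cells were the thinnest group, with 3647831 UMIs, and 46.5% of them lay within 0.5 of the cut, against 8.89% of the non-cycling cells labelled RUNX1. Median UMIs per cell were 12694.5 and 20024.5 in cycling cells and 10106.5 and 11546.5 in non-cycling cells, control first. Mitochondrial genes held 9.39% and 12.5% of the UMIs of cycling cells and 10.8% and 13.9% of those of non-cycling cells. The part of depth and mitochondrial share in the ratios below was not tested beyond the settings given in the closing section.

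**Figure D1:**
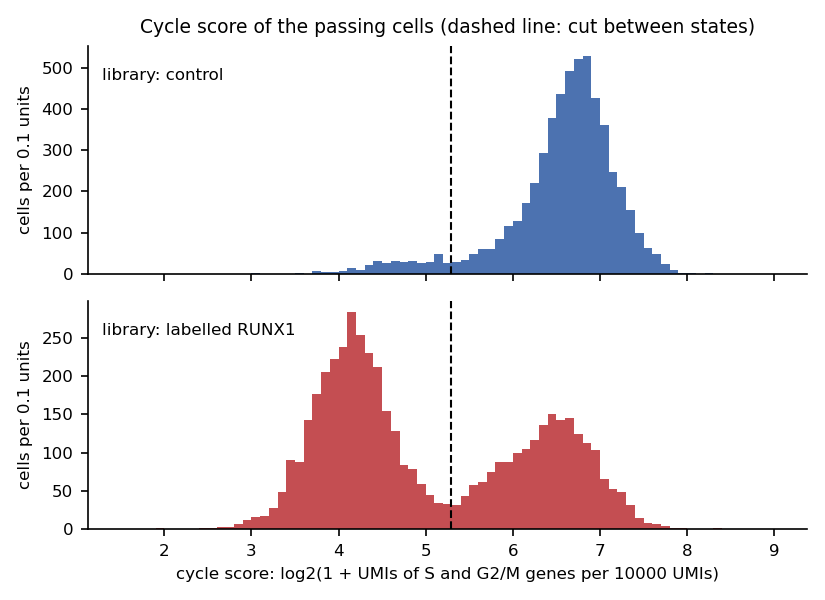
Cycle score of the passing cells, in cells per 0.1 units, for the control (upper) and the library labelled RUNX1 (lower), with a dashed line at the cut of 5.29. The control has 1 main peak above the cut with 93.8% of its cells, and the library labelled RUNX1 has a peak on each side, with 60.2% of cells below.

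Over all passing cells the p53 target genes as a list stood a little higher in the library labelled RUNX1, led by TP53INP1, BTG2, ZMAT3, TP53I3 and CCNG2, while MDM2, the main negative regulator of p53, and AEN were lower. Of 23 members that reached 10 CPM in either library, 9 were called higher (a log2 ratio of 0.5 or more, 1.41-fold) and 2 lower. Among all 7980 genes measured in the same way, 13.8% were called higher and 21.4% lower. The median log2 ratio of the members was 0.25 and that of all genes -0.13, a difference of 0.38. TMM and median-of-ratios scaling moved the median of all genes to -0.26 and -0.25, and totals without mitochondrial and ribosomal protein genes to 0.14. Of the members called, 81.8% were higher in the main scaling, 70.0% with TMM or median of ratios, and 92.9% with the reduced totals.

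In cycling cells fewer members differed. Of 21 measured, 6 were called higher (CDKN1A, BTG2, CCNG2, ZMAT3, RPS27L and DDB2) and 0 lower, against 6.59% and 12.8% of 7698 genes, and the member median was 0.02 (-0.0233 with TMM) against -0.14 for all genes. With TMM or median-of-ratios scaling, CDKN1A was no longer called and MDM2 was called lower, so that 83.3% in place of 100% of the called members were higher. In non-cycling cells, 10 of 23 were called higher and 4 lower, against 22.2% and 20.5% of 8033 genes, with a member median of 0.24 against -0.01. Of the members called there, 71.4% were higher. That share was 85.7% with the reduced totals, 66.7% with median of ratios and 60% without cells within 0.5 of the cut. BTG2, CCNG2 and ZMAT3 were the members called higher over all cells and within each state.

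**Figure D2:**
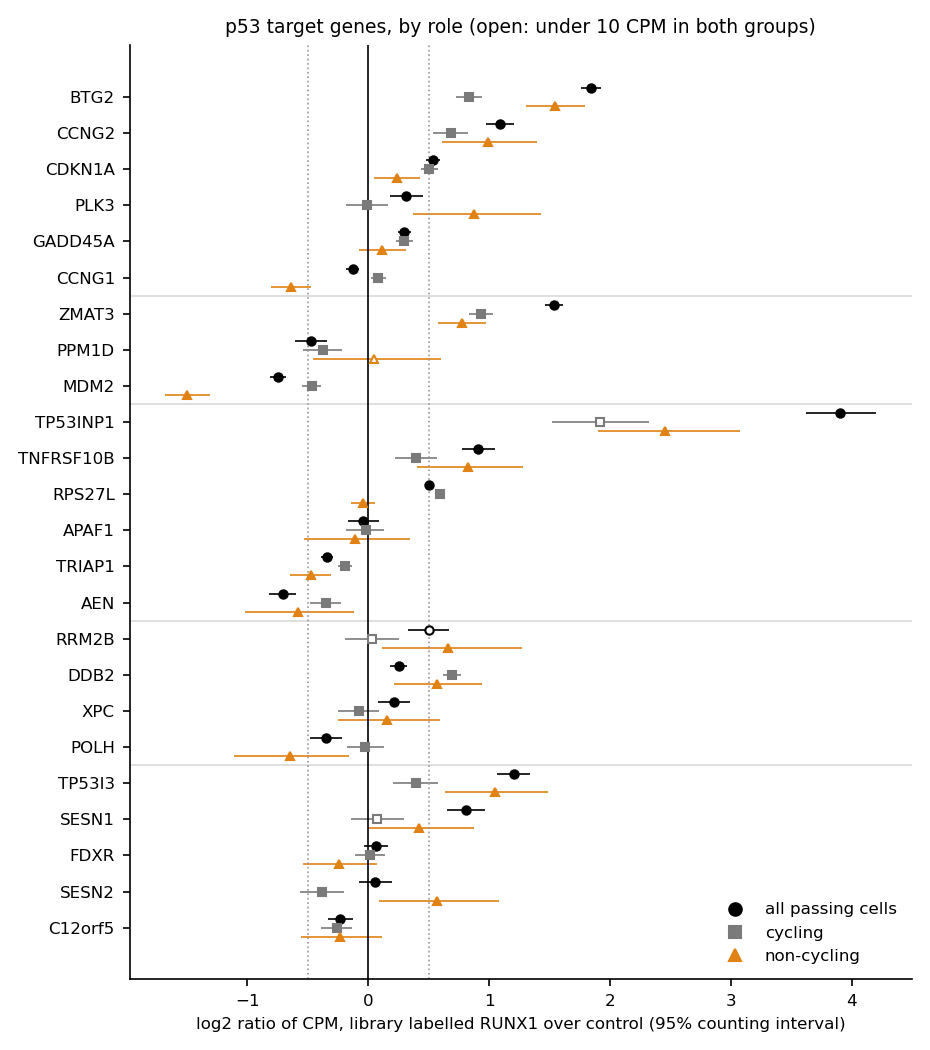
Log2 ratio of CPM, library labelled RUNX1 over control, of the 24 members at 10 CPM or more in some group, ordered by role, over all passing cells (circles), cycling cells (squares) and non-cycling cells (triangles) with 95% counting intervals. Dotted lines mark a ratio of 0.5 in size and open symbols a level under 10 CPM in both groups. BTG2, CCNG2 and ZMAT3 lie right of the upper dotted line in all 3 readings, and MDM2 lies left of 0 in all 3.

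By GENCODE coordinates lifted to GRCh37, CDKN1A lies at chr6:36644237-36655114, BTG2 at chr1:203274619-203278730, MDM2 at chr12:69201957-69239324 (all plus strand) and ZMAT3 at chr3:178677909-178790003 (minus strand). Among the cell cycle brakes, BTG2 had the largest ratio. BTG2, an antiproliferative co-regulator of mRNA decay, stood at 19.7 CPM in cycling and 40.3 CPM in non-cycling control cells, and at 35.2 and 118 CPM in the same states of the library labelled RUNX1. It was therefore higher in the library labelled RUNX1 within both states, and higher in non-cycling than in cycling cells of both libraries. The log2 ratio between libraries was 1.84 (1.76 to 1.92) over all cells, 0.83 (0.73 to 0.94) in cycling and 1.55 (1.31 to 1.79) in non-cycling cells. CCNG2, an unconventional cyclin, followed the same order between the 2 states, with 11.5 and 16.2 CPM in cycling and non-cycling control cells and 18.5 and 32.2 CPM in those labelled RUNX1. Its ratio was 0.68 (0.54 to 0.83) in cycling and 0.99 (0.61 to 1.40) in non-cycling cells.

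CDKN1A, which encodes the CDK inhibitor p21, differed less. It had 52.7 CPM in cycling and 68.8 CPM in non-cycling control cells, against 74.8 and 81.1 CPM in the library labelled RUNX1. The ratio was 0.50 (0.44 to 0.57) in cycling cells and 0.24 (0.05 to 0.43) in non-cycling cells, so the larger value was in the cells that still expressed cycle genes. The call over all cells, at 0.54, was lost under 3 of 9 alternatives (0.41 at the lowest), and that in cycling cells under 4 of 12 (0.25 among cells with under 10% mitochondrial UMIs). CCNG1, the paralog of CCNG2 and a classical p53 target, had 80.8 and 85.6 CPM in cycling cells of the control and the library labelled RUNX1, but 97.3 and 62.5 CPM in non-cycling cells, a ratio of -0.64 (-0.80 to -0.47). CCNG1 and CCNG2 thus differed in opposite directions in non-cycling cells. PLK3, a stress-induced kinase, reached the call in non-cycling cells (9.05 against 16.6 CPM, from 33 UMIs in the control), and GADD45A, a checkpoint protein, did not in any state (0.30, 0.30 and 0.11).

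The feedback genes went apart. MDM2 stood at 63.1 CPM in cycling and 84.7 CPM in non-cycling control cells, and at 45.7 and 30.1 CPM in those labelled RUNX1. The non-cycling cells were thus the higher state of the control and the lower state of the library labelled RUNX1, and the ratio between libraries was -0.47 (-0.55 to -0.39) in cycling and -1.49 (-1.68 to -1.31) in non-cycling cells, where it was the lowest of the members measured. Over all cells it was -0.75, and -0.46 among cells with under 10% mitochondrial UMIs. PPM1D, the phosphatase that dephosphorylates p53 and its kinases, had 14.9 CPM in control cells and 10.7 CPM in those labelled RUNX1. That was a ratio of -0.47 (-0.61 to -0.34) over all cells, and in cycling cells it was -0.38 (-0.54 to -0.22). In non-cycling cells PPM1D was under 10 CPM in both libraries, with a ratio of 0.05 (-0.46 to 0.61). ZMAT3, an RNA-binding protein also known as Wig-1, was higher in each state: 23.2 against 44.3 CPM in cycling cells, a ratio of 0.93 (0.84 to 1.03), and 60.6 against 104 CPM in non-cycling cells, a ratio of 0.77 (0.58 to 0.98).

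TP53INP1, a stress protein of autophagy and p53 phosphorylation, had the largest ratio of all members. Control cells held 105 UMIs and those labelled RUNX1 1563, or 1.39 and 20.7 CPM, which gave a log2 ratio of 3.90 (3.62 to 4.2). Of the 1563 UMIs, 1399 came from non-cycling cells, where the level was 39.1 CPM against 7.13 CPM in the control, a ratio of 2.45 (1.90 to 3.07). In cycling cells it stayed under the measured level in both libraries, at 1.10 and 4.15 CPM. The ratio over all cells was thus larger than the ratio within either state.

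The death receptors were sparse. TNFRSF10B, the receptor DR5 of the ligand TRAIL, had 9.00 and 11.8 CPM in cycling and 13.2 and 23.4 CPM in non-cycling cells, control first, with a ratio of 0.91 (0.78 to 1.05) over all cells. TNFRSF10A, the receptor DR4, had 63 UMIs in control cells and 7 in those labelled RUNX1, a log2 ratio of -3.16 (-4.53 to -2.04) far under the measured level. The 2 TRAIL receptors thus lay on opposite sides. FAS, the receptor of FAS ligand, had 125 and 220 UMIs, and PHLDA3, an inhibitor of AKT, 165 and 481, ratios of 0.82 (0.50 to 1.15) and 1.55 (1.29 to 1.82) that were also under the measured level and outside the counts above. EDA2R, a receptor of ectodysplasin, and SPATA18, a mitochondrial quality control factor, had 0 UMIs. The upper limit of the interval for each was 0.0487 CPM in control cells and 0.0490 CPM in those labelled RUNX1.

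Among the other apoptosis genes, RPS27L was called higher in cycling but not in non-cycling cells: 171 against 257 CPM, a ratio of 0.59 (0.55 to 0.63), and 242 against 235 CPM in non-cycling cells, a ratio of -0.04 (-0.14 to 0.06). RPS27L is a ribosomal protein paralog, and how reads shared with RPS27 were assigned is not given in the sources used here. Ribosomal protein genes as a whole held 27.2% and 31.3% of the UMIs of cycling cells and 30.9% and 33.4% of those of non-cycling cells, control first. Its call over all cells, at 0.50, was lost under 4 of 9 alternatives (0.38 at the lowest). AEN, an apoptosis-enhancing nuclease with the decamer printed above, was lower, with 22.1 CPM in control cells and 13.5 CPM in those labelled RUNX1, a ratio of -0.71 (-0.82 to -0.59). Within the states the AEN ratio was -0.35 and -0.58. TRIAP1, an apoptosis inhibitor, was at -0.34, and APAF1, the scaffold of the apoptosome, at -0.04 (-0.17 to 0.09).

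Of the 4 DNA repair genes, 3 were measured over all cells and none of these was called, beside 13.8% of all genes called higher and 21.4% lower. DDB2 was called higher within both states, as were 6.59% of all genes in cycling and 22.2% in non-cycling cells. DDB2, the damage sensor of nucleotide excision repair, had 43.4 and 70.3 CPM in cycling cells and 18.9 and 28.1 CPM in non-cycling cells, control first, which gave ratios of 0.70 (0.62 to 0.77) and 0.57 (0.22 to 0.94). Without cells near the cut or with thinned cells the call in non-cycling cells was lost (0.32 at the lowest). Its ratio over all cells was 0.25. DDB2 was lower in non-cycling than in cycling cells of both libraries, and these cells were 6.18% of the control and 60.2% of the library labelled RUNX1. XPC, its partner in damage recognition, differed by 0.21, -0.08 and 0.16 over all, cycling and non-cycling cells, but by 0.59 over all and 1.59 in non-cycling cells with under 10% mitochondrial UMIs. POLH, the translesion polymerase eta, was at -0.02 in cycling and -0.65 (-1.10 to -0.16) in non-cycling cells, or -0.07 among those with under 10% mitochondrial UMIs. RRM2B, the p53-inducible ribonucleotide reductase subunit, had 6.49 and 6.65 CPM in cycling and 7.68 and 12.2 CPM in non-cycling cells. It was called higher in non-cycling cells, at 0.66 (0.11 to 1.27), from 28 UMIs in the control. Over all cells its ratio was 0.50, but it was under 10 CPM in both libraries.

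Among the redox and metabolic genes, TP53I3, a quinone oxidoreductase-like enzyme, had 7.95 and 10.4 CPM in cycling and 13.7 and 28.3 CPM in non-cycling cells, control first, and ratios of 0.39 (0.21 to 0.58) and 1.05 (0.64 to 1.49). SESN1 and SESN2, sestrins that restrain mTORC1, did not follow the same pattern. SESN1 had 6.84 and 12.0 CPM over all cells, a ratio of 0.81 (0.65 to 0.97), but 0.08 in cycling and 0.42 (-0.01 to 0.87) in non-cycling cells, where it was called higher under 4 of 12 alternatives (1.27 at the highest). SESN2 was at -0.38 (-0.56 to -0.20) in cycling and 0.57 (0.09 to 1.08) in non-cycling cells, the latter from 38 UMIs in the control and not called with thinned cells (0.37). FDXR, a mitochondrial reductase, was at 0.07, and C12orf5, the older symbol of the glycolysis regulator TIGAR, at -0.23.

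**Figure D3:**
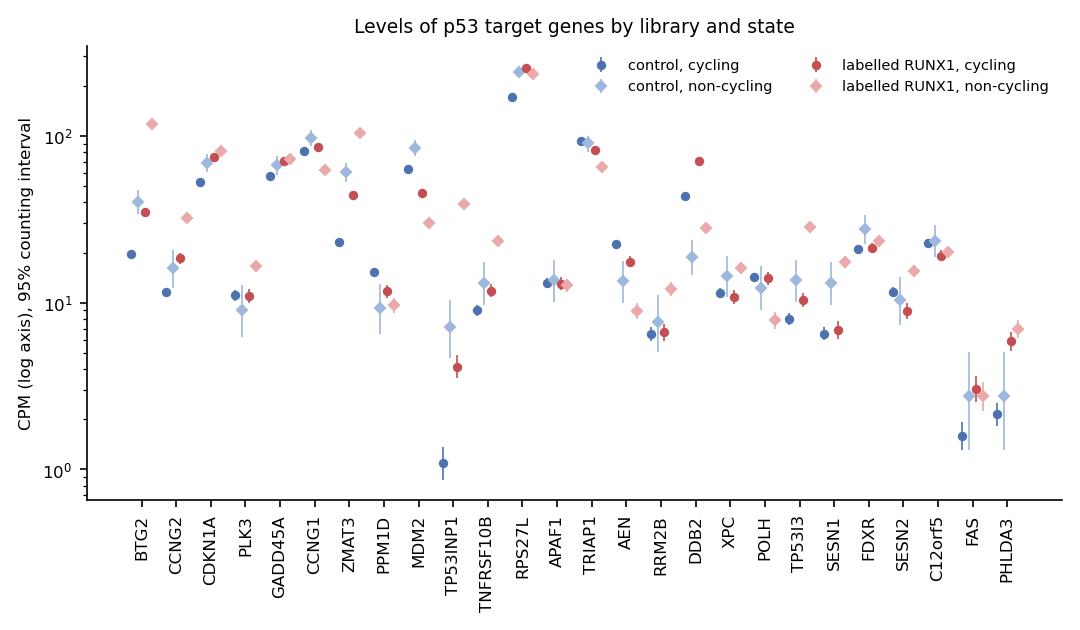
CPM on a log axis of 26 members in the 4 groups of cells, with 95% counting intervals: circles are cycling and diamonds non-cycling cells, blue the control and red the library labelled RUNX1. TP53INP1 spans 1.10 to 39.1 CPM over the groups, and the pale red diamond (non-cycling, labelled RUNX1) is the highest point for BTG2, CCNG2 and ZMAT3 and the lowest for MDM2 and CCNG1.

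The same genes were next compared between states of the same library, which does not rest on the control label. In the library labelled RUNX1, 11 of 24 members were called higher in non-cycling cells and 4 lower (MDM2, AEN, DDB2 and POLH), against 17.9% and 15.8% of 8084 genes, with medians of 0.13 for the members and 0.03 for all genes. With TMM scaling the member median was -0.0553 and that of all genes -0.16, and 60% in place of 73.3% of the called members were higher. In the control, 6 of 22 were called higher (BTG2, ZMAT3, TNFRSF10B, RPS27L, SESN1 and TP53I3) and 3 lower (PPM1D, AEN and DDB2), against 4.65% and 13.6% of 7629 genes. ZMAT3 was higher in non-cycling cells by 1.23 (1.14 to 1.31) in the library labelled RUNX1 and by 1.39 (1.18 to 1.59) in the control, and SESN1 by 1.36 and 1.01. DDB2 was lower by a like amount in each, at -1.33 (-1.43 to -1.22) and -1.20 (-1.56 to -0.85). MDM2 had opposite signs, at -0.60 (-0.71 to -0.49) in the library labelled RUNX1 and 0.43 (0.25 to 0.59) in the control. CCNG1 and RPS27L also changed sign, from 0.27 to -0.45 and from 0.51 to -0.13, control first, although RPS27L in the library labelled RUNX1 was at 0.09 among cells with under 10% mitochondrial UMIs.

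Finer steps of the cycle score showed where levels changed. ZMAT3 was lower at higher scores in both libraries: in cells with a score of 4 to 5, 6 to 7, and 7 or more it had 67.8, 23.2 and 21.1 CPM in control cells and 105, 45.6 and 36.8 CPM in those labelled RUNX1. TP53INP1 in the same bins had 7.21, 0.991 and 1.16 CPM in control cells and 41.1, 3.68 and 5.07 CPM in those labelled RUNX1. MDM2 in those bins had 86.9, 61.9 and 65.4 CPM in control cells and 31.6, 47.6 and 45.1 CPM in those labelled RUNX1. The 2 libraries thus lay nearer for MDM2 at high scores than at low ones. CCNG2 did not fall steadily with the score in either library. At 4 to 5, 5 to 6, 6 to 7, and 7 or more it had 17.8, 7.84, 9.56 and 17.6 CPM in control cells. Cells labelled RUNX1 had 34.8, 10.7, 18.0 and 35.0 CPM of it in these bins. The bin under 4 held 20 control cells against 1060 labelled RUNX1, and there ZMAT3 had 107 (64.3 to 167) and 105 CPM and TP53INP1 39.4 (15.8 to 81.1) and 40.0 CPM, control first. For both genes the control interval in that bin held the level of the cells labelled RUNX1. For MDM2 it did not, with 89.9 (51.4 to 146) against 26.2 CPM.

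**Figure D4:**
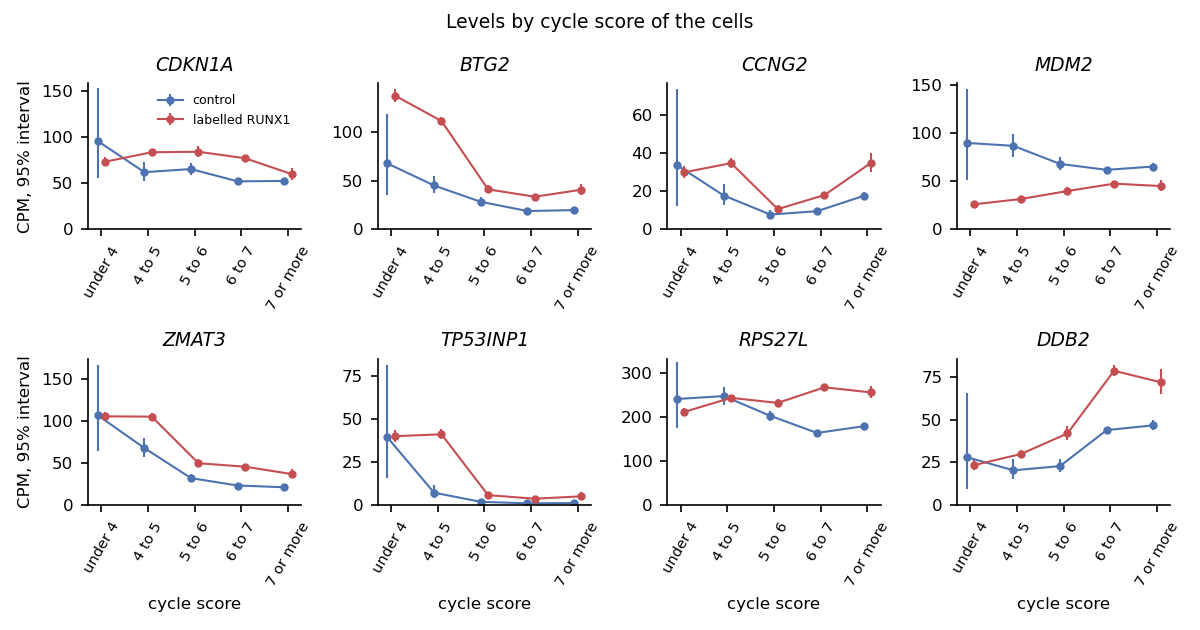
CPM with 95% counting intervals of 8 members in 5 bins of the cycle score, for the control (blue) and the library labelled RUNX1 (red). ZMAT3 and BTG2 are highest in the lowest bin of each library, MDM2 is highest in the lowest bin for control cells but lowest there for cells labelled RUNX1, and the lowest control bin rests on 20 cells.

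Cycling cells were also divided at the median share of S phase transcripts among cycle transcripts in control cells. CCNG2 had 9.22 CPM in S-rich and 13.4 CPM in G2/M-rich control cells, and 10.7 and 23.7 CPM in those labelled RUNX1. BTG2 had 16.7 and 22.2 CPM in control cells and 23.1 and 43.3 CPM in those labelled RUNX1. Both were thus higher in G2/M-rich cells of each library, by log2 ratios of S over G2/M of -0.54 (-0.75 to -0.33) and -1.15 (-1.40 to -0.90) for CCNG2 and of -0.41 (-0.56 to -0.25) and -0.91 (-1.08 to -0.73) for BTG2, control first. CDKN1A (-0.16 and 0.14) and MDM2 (-0.06 and -0.09) varied little between these phases. The higher CDKN1A of cycling cells labelled RUNX1 was present in S-rich (49.5 against 79.1 CPM) and in G2/M-rich cells (55.3 against 72.0 CPM).

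Non-cycling cells labelled RUNX1 were not alike for these genes. When they were divided by the detection of transcripts chosen with earlier results known, the 389 cells with C1orf141 or LINC00967 had 156 CPM of ZMAT3, 76.1 of TP53INP1 and 66.0 of CCNG2, while the 695 cells with none of C1orf141, LINC00967, CCL3, CCL4 and FCER1G had 77.2, 17.4 and 18.1 CPM. CDKN1A had 106 and 105 CPM in these groups but 53.3 CPM in the 1236 cells with CCL3 or CCL4, where BTG2 was at 161 CPM. BTG2 was at 116 CPM in the 389 cells and at 55.4 CPM in the 695 cells. The 570 cells with FCER1G and none of the other transcripts had 83.3 CPM of CDKN1A and 133 of BTG2. CDKN1A and BTG2 thus had their highest levels in different groups. In the 389 cells BTG2 lay near its level over all non-cycling cells labelled RUNX1, 118 CPM. Median UMIs per cell were 9570, 15902, 10235.5 and 11207.5 for the groups of 389, 695, 1236 and 570 cells. The part of depth in this division was not tested.

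To compare single cells at equal depth, each cell was thinned to 8000 UMIs, which left out 366 and 47 control cells and 22 and 590 cells labelled RUNX1 (cycling, then non-cycling). A UMI of BTG2 was then found in 13.8% of cycling and 26.1% of non-cycling control cells, and in 22.0% and 49.4% of those labelled RUNX1. The shares before thinning were 21.1%, 33.2%, 40.1% and 63.6%. For CDKN1A the thinned shares were 27.7%, 32.4%, 34.3% and 32.5% in the same order, and for MDM2 36.3%, 42.1%, 27.8% and 19.2%. The CDKN1A share therefore differed little among the last 3 groups. The variance over cells divided by the mean, which is 1 for counting error alone, was 1.84, 2.16, 1.93 and 2.77 for CDKN1A in the same order, and the most UMIs of it in a cell were 19, 8, 14 and 14. For MDM2 it was 1.22, 1.64, 1.2 and 1.12, highest in non-cycling control cells. TP53INP1 was found in 0.88% and 4.01% of control cells and in 2.54% and 23.3% of cells labelled RUNX1. No human cell type that should lack these transcripts was known among the barcodes, so a share of each from free RNA was not measured. For the Nalm-6 libraries of shorter culture, the methods describe lanes in which human cells were pooled with mouse cells. Passing barcodes here held a median of 249 mouse UMIs (control) and 153 (labelled RUNX1). Whether those UMIs came from free RNA was not tested.

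Members were next compared between cells with and without a UMI of 1 of 6 members, CDKN1A, ZMAT3, MDM2, BTG2, CCNG2 and TP53INP1. With CDKN1A, more members than genes in general were found together, in both libraries. In cycling control cells, 1355 thinned cells with a CDKN1A UMI were set against 3531 without. Of 22 other members with 100 UMIs or more, 13 had more UMIs per cell in cells with CDKN1A, with the interval above 0, against 4.3% of 10142 genes. In the library labelled RUNX1 this held for 14 of 22 members in cycling cells (4.68% of 8489 genes) and for 12 of 24 in non-cycling cells (6.64% of 9207 genes). These cells share a library and the counts are sparse, so the values describe the cells of these 2 libraries. ZMAT3 had 406 UMIs in the 1355 cycling control cells with CDKN1A and 496 in the 3531 without, a log2 ratio per cell of 1.09 (0.90 to 1.29). In the library labelled RUNX1 that ratio was 0.94 (0.71 to 1.17) in cycling and 0.51 (0.37 to 0.64) in non-cycling cells. Beside ZMAT3, the members above 0 in all 3 groups of cells were CCNG1, DDB2, FDXR, GADD45A, MDM2, RPS27L, TNFRSF10B and TRIAP1, with RPS27L at 0.45, 0.54 and 0.73 in the same order.

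BTG2 and TP53INP1, the members with the highest ratios in non-cycling cells labelled RUNX1, were not among those that went with CDKN1A there. BTG2 had a log2 ratio of -0.12 (-0.26 to 0.01) between non-cycling cells with and without CDKN1A, and TP53INP1 of 0.05 (-0.18 to 0.28). AEN and MDM2, which were lower in that state, did go with it, at 1.24 (0.77 to 1.70) and 0.63 (0.37 to 0.89). Cells with MDM2 in turn held more CDKN1A, by 0.47 (0.34 to 0.60) in cycling control cells and by 0.78 (0.61 to 0.95) in non-cycling cells labelled RUNX1. Members above 0 with MDM2 were 9 of 22 in cycling control cells (6.22% of genes), 4 of 22 in cycling (5.08%) and 8 of 24 in non-cycling cells labelled RUNX1 (4.56%). With ZMAT3 they were 11 of 22 (3.11%), 10 of 22 (5.05%) and 14 of 24 (17.6%), and TP53INP1 went with ZMAT3 in non-cycling cells labelled RUNX1, at 0.89 (0.67 to 1.11).

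With the other 3 genes, the counts were lower than with CDKN1A or ZMAT3. With CCNG2, the unconventional cyclin, they were 1 of 22 in cycling control cells (6.33% of genes), 0 of 22 in cycling (7.36%) and 8 of 24 in non-cycling cells labelled RUNX1 (14.1%). With BTG2 they were 4 of 22 (5.47%), 6 of 22 (8.45%) and 5 of 24 (19.6%), so that the last share lay near that of all genes. With TP53INP1, found in 43 cycling control cells and 48 cycling cells labelled RUNX1, they were 4 of 23 (2.68%), 4 of 23 (4.49%) and 9 of 24 (22.3%). The pattern seen with CDKN1A did not extend to cells with CCNG2 in the cycling state.

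**Figure D5:**
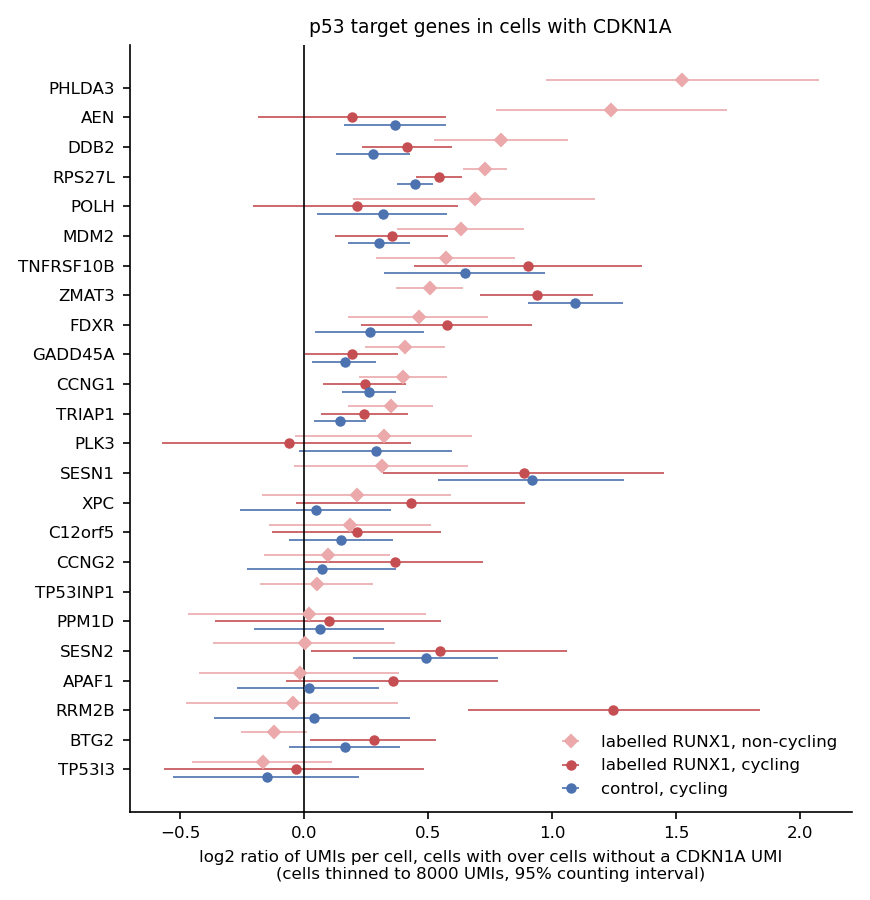
Log2 ratio of UMIs per cell between cells with and without a CDKN1A UMI, for members with 100 UMIs or more, in cells thinned to 8000 UMIs, with 95% counting intervals: pale diamonds are non-cycling cells labelled RUNX1, red circles cycling cells of that library and blue circles cycling control cells. ZMAT3, RPS27L, DDB2 and MDM2 are among the 9 members right of 0 in all 3 groups of cells, while BTG2 and TP53INP1 lie near 0 in non-cycling cells.

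The rest of the pathway was read from 2 lists made with earlier results of these data known. Of 16 regulators of p53 measured, 1 was called higher over all cells and 4 lower, with a median of -0.07, beside the 13.8% and 21.4% of all genes, so that the lower share was near that of all genes. ATM, the kinase that signals double-strand breaks, was the gene called higher, at 0.74 (0.67 to 0.81), and at 0.92 (0.69 to 1.16) in non-cycling cells. The 4 lower were CHEK1 (-0.87), CHEK2 (-0.66), the deubiquitinase USP7 (-0.56) and ATR (-0.52). None of the 16 was called in cycling cells, where 6.59% of all genes were called higher and 12.8% lower. CHEK1 was at -0.24 in each state against -2.30 between states of each library. Its ratio over all cells was thus larger in size than within either state.

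Of 29 further p53 targets measured, 11 were called higher over all cells and 1 lower (PCNA, the replication clamp, at -0.96), with a median of 0.36. PCNA is also among the 96 genes of the cycle score, so its ratios within a state are not independent of that split. BBC3, the apoptosis activator PUMA, had 6.44 CPM in control cells and 27.6 CPM in those labelled RUNX1, and its ratio was 1.28 (1.11 to 1.46) in cycling and 1.85 (1.41 to 2.33) in non-cycling cells. RHOC, a small GTPase, was at 1.34 and 1.69, and BAX, the effector of mitochondrial apoptosis, at 0.60 and 0.39. In cycling cells 9 of 28 were called higher and 0 lower, against 6.59% and 12.8% of all genes, and in non-cycling cells 12 of 32 higher and 3 lower, against 22.2% and 20.5%. The FOXO targets outside the members had 5 higher and 4 lower of 15, the ATF4 and CHOP stress genes 2 higher and 3 lower of 9, and the immediate early genes, which include FOS and JUN, 7 higher and 0 lower of 11. For these lists and the further p53 targets over all cells, the shares of all genes were again 13.8% higher and 21.4% lower, and those of FOXO targets called lower and of stress genes called higher or lower rest on 2 to 4 genes each.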

How the data were processed

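The Chromium 3' single-cell assay of 10x Genomics gave 2 Nalm-6 libraries, 1 per group, with groups from the genotype labels. Per the submitters' processing notes, Cell Ranger 3.0.2 was run on hg19 and mm10. The deposited values are raw UMI counts per gene and cell, made by the authors with no normalization. The 10 ChIP-seq samples were not analysed here.

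A cell passed with over 2000 and fewer than 6000 genes, less than 20% of UMIs from mitochondrial genes and fewer than 500 mouse UMIs, and no doublets were removed. UMIs were summed over cells by library and state, with exact Poisson intervals for CPM and exact conditional binomial intervals for log2 ratios, taken without a pseudocount. A gene counted as measured when either compared group reached 10 CPM. The cut of the cycle score was set by the Otsu method on the library labelled RUNX1. All 29 members are named, with up to 4 measured genes of each further list, by largest ratio. The members, the lists and the divisions of cells were chosen with earlier results of these data known. BAX and other genes outside that rule were named after their values were seen. The code for ratios and intervals was run on simulated counts with counting error only, so spread between cells or libraries was not covered. The alternatives were other cell filters, scalings, gene floors, cell weights, depths and cuts of the score. Python 3.11.15, numpy 2.4.6, scipy 1.17.1, pandas 2.3.3, scanpy 1.11.5 (phase calls), matplotlib 3.10.9, R 4.3.3 and edgeR 4.0.16 (TMM factors only) were used. 1 gene of the list of regulators is not reported here.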

Additional observations from a re-analysis of the deposited data

Results flagged for a closer look

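Some members differed in opposite directions in different groups of cells. Between the libraries, CCNG1 had a log2 ratio of 0.08 (0.0839) in cycling and of -0.638 in non-cycling cells, and SESN2 of -0.377 in cycling and 0.568 in non-cycling cells. Between non-cycling and cycling cells, CCNG1 had a ratio of 0.268 within the control and -0.453 within the library labelled RUNX1, MDM2 of 0.425 and -0.604, and RPS27L of 0.505 and -0.132. With 1 library per group, none of these differences was tested. The control side of each value for non-cycling cells rests on 346 cells.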

How the results depend on the processing

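No paired analysis was possible because each group had 1 single-cell library, and for the same reason no replicate could be left out. The member median over all cells (0.252) was 0.440 among cells with under 10% mitochondrial UMIs, 0.124 with TMM, 0.125 with median of ratios, 0.512 with totals without mitochondrial and ribosomal protein genes and 0.386 as a mean of per-cell shares. The number called lower went from 2 to 0 with the mitochondrial limit, to 1 with the reduced totals and to 3 with TMM, median of ratios, no gene floor or thinned cells. In cycling cells the median (0.0176) was 0.210 with the mitochondrial limit and 0.231 with the reduced totals. In non-cycling cells it (0.236) was 0.808 with the mitochondrial limit. Between states of the library labelled RUNX1 it (0.130) was 0.434 with the mitochondrial limit, -0.0553 with TMM and -0.0134 with median of ratios. The cause of these shifts was not tested, except that a scaling moves members and all genes alike. The number called higher was 7 to 13 over the 9 alternatives, of 23 to 27 members measured. The shares of all genes called under each alternative are not given here, so the counts higher and lower are not set against them. Of the single calls, 7 of 11 over all cells, 4 of 6 in cycling cells, 9 of 14 in non-cycling cells and 13 of 15 between states of the library labelled RUNX1 held under every alternative run. Calls lost beside those given above were AEN over all cells (-0.475 at the nearest to 0), CCNG1 (-0.494) and AEN (-0.439) in non-cycling cells, RPS27L in cycling cells (0.493), and PLK3 (0.408) and XPC (0.337) between states of the library labelled RUNX1. Calls were also gained, among them GADD45A (0.565), PLK3 (0.527), XPC (0.594) and, lower, PPM1D (-0.602) over all cells, and in non-cycling cells APAF1, which was at 0.747 with the mitochondrial limit and -0.697 without cells near the cut, or FDXR (-0.556). Counting error of the 346 non-cycling control cells limits the ratios of members with few UMIs there. The mitochondrial limit left out most non-cycling cells of both libraries, so ratios with that limit rest on fewer cells. It also left out most cycling cells labelled RUNX1 (median mitochondrial share 12.4%), but not most cycling control cells (9.33%). In cycling cells the limit thus acted unequally on the 2 libraries.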
